A study of Mus musculus with 55 samples.

Results

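Transcripts of 38 cell cycle genes were followed in bulk RNA-seq of mouse pancreatic islets. The genes were chosen by name from a table of reads per gene, in which Ensembl identifiers were matched to symbols, and they are 38 of 47937 counted genes. All 38 had enough reads to be tested in every comparison. The islets came from C57B6/J males of 3 genotypes: wild type (WT), heterozygous for Eed (HET), and Eed -/- in β cells (βEedKO). EED is a core subunit of Polycomb repressive complex PRC2, which methylates lysine 27 of histone H3. In βEedKO mice a floxed Eed gene is deleted by a Cre under the rat insulin promoter, which acts in β cells from late embryonic life on, so the other cells of the islet kept Eed. The cross behind the line paired Eed fl/fl mice with Cre-positive Eed +/fl mice, so each of its pups inherits a floxed allele. Whether the WT and HET libraries came from such litters, and which of those animals carried the Cre, is not given in the sources used here. There were 3 libraries of each genotype at 8 weeks of age, and at 25 weeks 3 of WT, 2 of HET and 2 of βEedKO, 16 in all. Islets were hand-picked and cultured before RNA was taken, each library holds islets of a single animal or of a small pool, and the βEedKO libraries of 25 weeks were pools of more animals than the others.

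A cell that divides first passes from G1 into S phase. D-type cyclins (Ccnd1, Ccnd2, Ccnd3) activate the kinases Cdk4 and Cdk6, then the E-type cyclins (Ccne1, Ccne2) activate Cdk2, and E2f1 switches on genes for DNA synthesis. Among these are the 6 subunits of the MCM replicative helicase (Mcm2, Mcm3, Mcm4, Mcm5, Mcm6, Mcm7), the sliding clamp Pcna, and Rrm2 and Tyms, which make DNA precursors. The remaining 20 members, called mitotic here, act from S phase to the end of mitosis. They include the cyclins Ccna2, Ccnb1 and Ccnb2, their kinase Cdk1, the transcription factor Foxm1, and the mitotic kinases Plk1, Aurka and Aurkb. Bub1, Bub1b and Cdc20 belong to the spindle checkpoint, Cenpa, Cenpe and Cenpf to the kinetochore, and Birc5, Tpx2, Kif11, Kif20a and Top2a to spindle assembly and chromosome segregation. Mki67 encodes the antigen Ki-67, the usual marker of dividing cells. β cells divide often in young rodents and rarely in older ones, and in rodent islets Ccnd2 is the D-type cyclin that β cell growth depends on most. Ezh2, the PRC2 enzyme, is known to keep the inhibitor locus Cdkn2a silent in young β cells.

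The libraries held 4645393 to 22925359 counted reads, and normalised values are given in CPM, counts scaled to library size with TMM factors. Eed was at 23.9, 33.1 and 31.2 CPM in WT, 17.2, 17.1 and 20.5 CPM in HET and 14.9, 13.4 and 14.8 CPM in βEedKO islets at 8 weeks. At 25 weeks it was at 28.3, 22.0 and 19.3 CPM in WT, 16.3 and 16.9 CPM in HET and 15.6 and 14.2 CPM in βEedKO islets, so that the WT and βEedKO libraries did not overlap at either age. The log2 fold change of βEedKO over WT was -1.04 at 8 weeks (adjusted p = 0.0881, edgeR's quasi-likelihood test with Benjamini-Hochberg adjustment over all genes tested) and -0.69 at 25 weeks (edgeR adjusted p = 0.142). Some libraries stood apart. The summed level of 6 interferon-induced genes was 1937 to 3323 CPM in 4 libraries of 8 weeks (WT replicates 3 and 4, βEedKO replicates 4 and 5) and 15.8 to 66.6 CPM in the other 12. The summed level of 6 β cell markers was 13921 and 17275 CPM in the βEedKO libraries of 25 weeks and at least 122952 CPM in the others, and that of 6 acinar markers ran from 8399 to 249083 CPM, both extremes in the βEedKO libraries of 25 weeks. Ucn3, a gene of mature β cells, fell by 5.26 on the log2 scale in βEedKO islets at 25 weeks (edgeR adjusted p = 0.00017).

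In the deposited segmentation of WT islet chromatin, made by EpicSeg in bins of 200 bp from replicates that had been averaged, the transcription start sites of the members lay in 3 states only. State L held 19 of the 38 members (50.0%) and 12.5% of 20445 protein-coding genes. The study describes L as bivalent, with H3K4me3 and the PRC2 mark H3K27me3 together. The members at state L included Ccnd1, Ccnd2, Cdk6, E2f1, Mcm3, Mcm5 and 12 of the 20 mitotic members, among them Cdk1, Top2a, Ccnb2 and Plk1. State A, described as active, held 5 members (13.2%) against 30.2% of all genes, and these were Cdk4, Pcna, Ccna2, Cenpe and Kif20a. The other 14 members (36.8%), Mki67 among them, lay in state B, which held 13.8% of all genes. The segmentation is of whole islets and holds no spread between animals.

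Promoter sequences, from 250 bases before to 50 bases after the RefSeq transcription start (assembly GRCm38.p6), were at hand for 29 of the 38 members. Ccnd1, Ccnd2, Ccne2, Mcm4, Ccna2, Foxm1, Aurkb, Tpx2 and Kif20a had none. They were searched on both strands for the letters TTTGAA (the cell cycle homology region, CHR, bound by the DREAM and MuvB complexes), for CCAAT (the box bound by NF-Y), and for the E2F letters TTTCCCGC, TTTCGCGC, TTTGGCGC and TTTGCCGC. CCAAT was frequent in both the mitotic and the MCM promoters, while TTTGAA and the E2F words were divided unevenly between them. TTTGAA stood in 11 of 15 mitotic promoters (73.3%), in 1 of the 14 other members' promoters and in 18.1% of 27025 genes. CCAAT stood in 14 of 15 mitotic promoters (93.3%), in all 5 MCM promoters and in 37.9% of genes. One of the 4 E2F words stood in 4 of 5 MCM promoters (80.0%), in 1 of 15 mitotic promoters, that of Cdk1, and in 2.32% of genes. Shown are 4 mitotic promoters, Ccnb2 (chr9:70421505-70421804, minus strand), Cdk1 (chr10:69352863-69353162, minus strand), Top2a (chr11:99024140-99024439, minus strand) and Mki67 (chr7:135716330-135716629, minus strand), whose transcripts were lower in older WT islets. With them are the promoters of the helicase genes with the 2 largest log2 fold changes among the MCM members in older βEedKO islets, Mcm3 (chr1:20820263-20820562, minus strand) and Mcm5 (chr8:75109259-75109558, plus strand). Capitals mark every match of the letters on either strand.
Ccnb2: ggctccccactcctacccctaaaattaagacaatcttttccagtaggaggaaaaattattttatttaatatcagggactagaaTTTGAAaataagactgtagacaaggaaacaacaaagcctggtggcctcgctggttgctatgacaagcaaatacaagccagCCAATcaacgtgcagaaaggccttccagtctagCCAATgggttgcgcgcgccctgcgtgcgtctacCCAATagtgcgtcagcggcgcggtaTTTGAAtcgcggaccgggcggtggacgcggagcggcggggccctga
Cdk1: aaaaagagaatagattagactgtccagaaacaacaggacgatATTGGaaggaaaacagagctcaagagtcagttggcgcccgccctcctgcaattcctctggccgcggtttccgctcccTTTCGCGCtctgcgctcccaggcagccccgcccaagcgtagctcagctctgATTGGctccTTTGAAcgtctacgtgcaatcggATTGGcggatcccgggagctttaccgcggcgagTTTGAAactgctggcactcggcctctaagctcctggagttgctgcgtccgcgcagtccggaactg
Top2a: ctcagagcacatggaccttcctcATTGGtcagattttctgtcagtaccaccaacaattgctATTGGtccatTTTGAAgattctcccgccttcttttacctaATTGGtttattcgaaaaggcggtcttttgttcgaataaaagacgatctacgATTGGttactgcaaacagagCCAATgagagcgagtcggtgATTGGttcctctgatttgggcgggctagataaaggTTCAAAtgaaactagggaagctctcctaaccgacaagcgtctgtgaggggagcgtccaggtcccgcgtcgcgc
Mki67: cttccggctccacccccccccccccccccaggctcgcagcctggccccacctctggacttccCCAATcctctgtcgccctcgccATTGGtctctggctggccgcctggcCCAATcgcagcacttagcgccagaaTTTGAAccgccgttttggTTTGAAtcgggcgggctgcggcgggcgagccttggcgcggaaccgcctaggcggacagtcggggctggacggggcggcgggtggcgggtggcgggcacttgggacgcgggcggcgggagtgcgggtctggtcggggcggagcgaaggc
Mcm3: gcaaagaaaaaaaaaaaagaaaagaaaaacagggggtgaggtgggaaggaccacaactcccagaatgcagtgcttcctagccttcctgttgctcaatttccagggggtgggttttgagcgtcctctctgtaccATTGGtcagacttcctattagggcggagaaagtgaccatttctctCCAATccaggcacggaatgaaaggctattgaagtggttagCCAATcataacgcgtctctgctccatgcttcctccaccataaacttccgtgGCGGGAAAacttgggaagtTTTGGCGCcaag
Mcm5: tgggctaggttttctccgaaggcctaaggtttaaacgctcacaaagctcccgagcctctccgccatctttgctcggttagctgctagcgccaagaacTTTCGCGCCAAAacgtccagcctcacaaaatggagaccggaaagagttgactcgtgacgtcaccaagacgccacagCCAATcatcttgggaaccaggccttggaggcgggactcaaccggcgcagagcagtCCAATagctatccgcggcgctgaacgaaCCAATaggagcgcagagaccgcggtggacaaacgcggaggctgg
Each of the 4 mitotic promoters shown has TTTGAA or its reverse complement at 2 places and CCAAT or its reverse complement at 3 or more. No other mitotic promoter has as many of either, so the 4 are the richest in these letters and are not typical. Those of Ccnb1, Bub1, Birc5 and Cenpe have no TTTGAA. In Mcm5 the capitals hold 2 E2F words on opposite strands that overlap each other. A match of letters is a description and shows no binding.

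**Figure D1:**
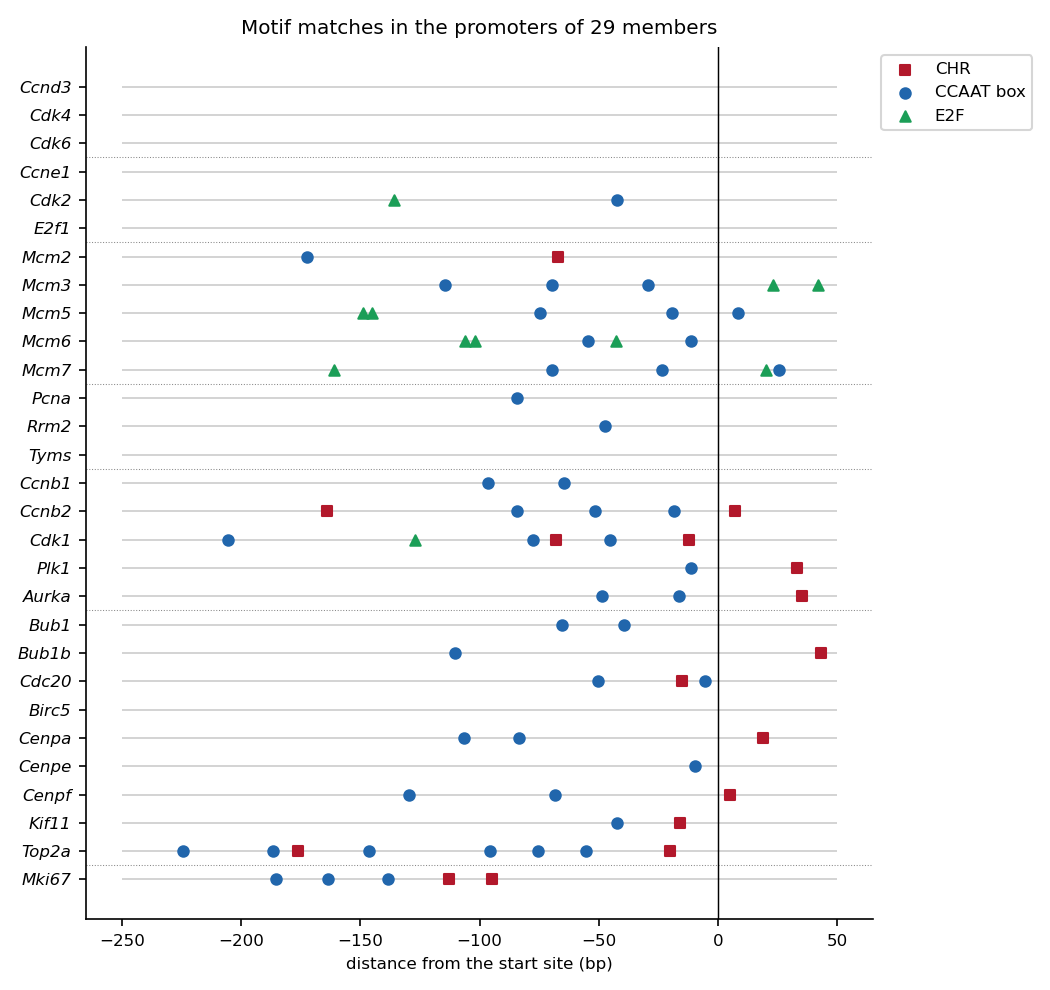
Matches of the CHR, CCAAT and E2F letters in the 29 promoters, by distance in bases from the RefSeq transcription start (x axis), 1 line per gene (y axis), with a marker for each match. The CHR matches lie almost all in mitotic genes, where 11 of 15 promoters have one, and E2F matches in 4 of the 5 MCM genes.

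The first comparison was of age in WT islets, 25 against 8 weeks. All 20 mitotic members were lower at 25 weeks, with a median log2 fold change of -1.59, where the median of all 18685 genes tested was 0.00 to 2 decimals. No member passed the adjusted test (0 of 38, background 0%), and no other gene did either: edgeR called 0 genes, with 1898 under an unadjusted p of 0.05, and DESeq2 called 139. At an unadjusted p under 0.05, 16 of the 38 members were lower and 0 higher, against a background of 6.29% of all genes for lower, and 10 of the 16 were mitotic. In 19 members every library of 25 weeks was below every library of 8 weeks, against 8.95% of all genes, and in 0 members was every library above, against 7.08%. In bulk islets, fewer dividing cells and less RNA per cell cannot be told apart. Markers of other islet cells differed with age as well. All 6 alpha, delta and PP cell markers were lower at 25 weeks (median log2 fold change -1.01), and their sum was 10060 to 12099 CPM at 25 weeks against 16474 to 35739 CPM at 8 weeks. Of 6 mesenchymal and stellate markers 5 were higher and 1 lower, with a sum of 69.9 to 100.3 CPM against 34.1 to 53.9 CPM. Of 6 endothelial markers 4 were higher and 2 lower, with a sum of 312 to 341 CPM against 220 to 287 CPM. None of these sums overlapped between the ages, and no marker of these lists was at 0 reads in any library. None was called by edgeR, and their part in the levels of the members was not tested.

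Mki67 was at 18.7, 22.4 and 13.6 CPM in the WT libraries of 8 weeks and at 4.80, 3.54 and 3.71 CPM in those of 25 weeks. The groups did not overlap, and the log2 fold change was -2.19 (SE 0.43, unadjusted p = 0.000416, adjusted p = 0.332, edgeR). Top2a, the topoisomerase that untangles sister chromatids, was at 13.6, 18.02 and 9.59 CPM at 8 weeks and 3.92, 2.56 and 1.70 CPM at 25 weeks, with a log2 fold change of -2.37 (SE 0.47, edgeR adjusted p = 0.337). Cdk1 was at 3.36, 3.95 and 2.49 CPM at 8 weeks and 1.53, 0.752 and 0.542 CPM at 25 weeks, a log2 fold change of -1.87 (SE 0.51, edgeR adjusted p = 0.489). For these 3 genes the lowest young library was above the highest old one. The same was seen for the cyclin Ccnb2 (log2 fold change -2.49), the chromosomal passenger subunit Birc5 (-2.31) and the spindle factor Tpx2 (-2.20). The unadjusted p of Mki67 was the smallest of the 38 in this comparison. With DESeq2 in place of edgeR, Mki67, Top2a, Tpx2 and Ccnd1 were called.

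The summed level of the 20 mitotic members was 89.2, 99.1 and 67.4 CPM in WT at 8 weeks and 37.7, 23.9 and 26.8 CPM at 25 weeks. Old islets thus held low but measurable levels: in the WT libraries of 25 weeks a mitotic member had 2 to 48 reads, and 9 of the 20 were under 2 CPM in each of these libraries. These libraries were also shallower, with 4645393 (replicate 2, the fewest of all), 11854558 and 15004056 counted reads. The WT libraries of 8 weeks had 18523130 to 18862300. Among the genes of the G1 phase Ccnd1 and Ccnd2 had smaller differences with age, while Cdk6 had a log2 fold change of -1.50. Ccnd1 was at 103, 92.3 and 116 CPM at 8 weeks and 57.6, 69.5 and 71.7 CPM at 25 weeks, without overlap (log2 fold change -0.64, SE 0.17, edgeR adjusted p = 0.489). Ccnd2 was at 649, 794 and 979 CPM at 8 weeks and 521, 541 and 478 CPM at 25 weeks, again without overlap (log2 fold change -0.65, SE 0.29, edgeR adjusted p = 0.489). Of the 30 further G2/M genes listed beside the members, 29 were lower at 25 weeks and 1 higher, with a median of -1.23, and of 22 further G1/S genes 18 were lower and 4 higher, with a median of -0.42.

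Cdk6 and the helicase subunit Mcm6 were highest in the 4 libraries with high interferon-induced genes, which are all of 8 weeks. Cdk6 was at 5.77, 9.30 and 12.4 CPM in WT at 8 weeks, 2.16, 7.85 and 2.48 CPM in HET and 6.83, 36.7 and 26.6 CPM in βEedKO islets. At 25 weeks it was at 3.49, 2.56 and 3.71 CPM in WT, 2.34 and 2.22 CPM in HET and 7.91 and 8.23 CPM in βEedKO islets. Its lowest value in the 4 libraries with high interferon-induced genes was 9.30 CPM and its highest in the other 12 was 8.23 CPM. For Mcm6 these values were 28.7 and 18.1 CPM. Pcna, looked at in the same way, was not separated: its lowest value in the 4 was 43.4 CPM and its highest in the other 12 was 50.3 CPM. How many of all genes are separated in this way was not counted. The part of the interferon state in the fold changes with age of Cdk6 (-1.50, edgeR adjusted p = 0.489) and Mcm6 (-1.10, edgeR adjusted p = 0.489) was not tested. With only the WT library of 8 weeks that was low in interferon-induced genes, a comparison chosen after seeing the data, 19 of the 20 mitotic members were lower at 25 weeks.

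**Figure D2:**
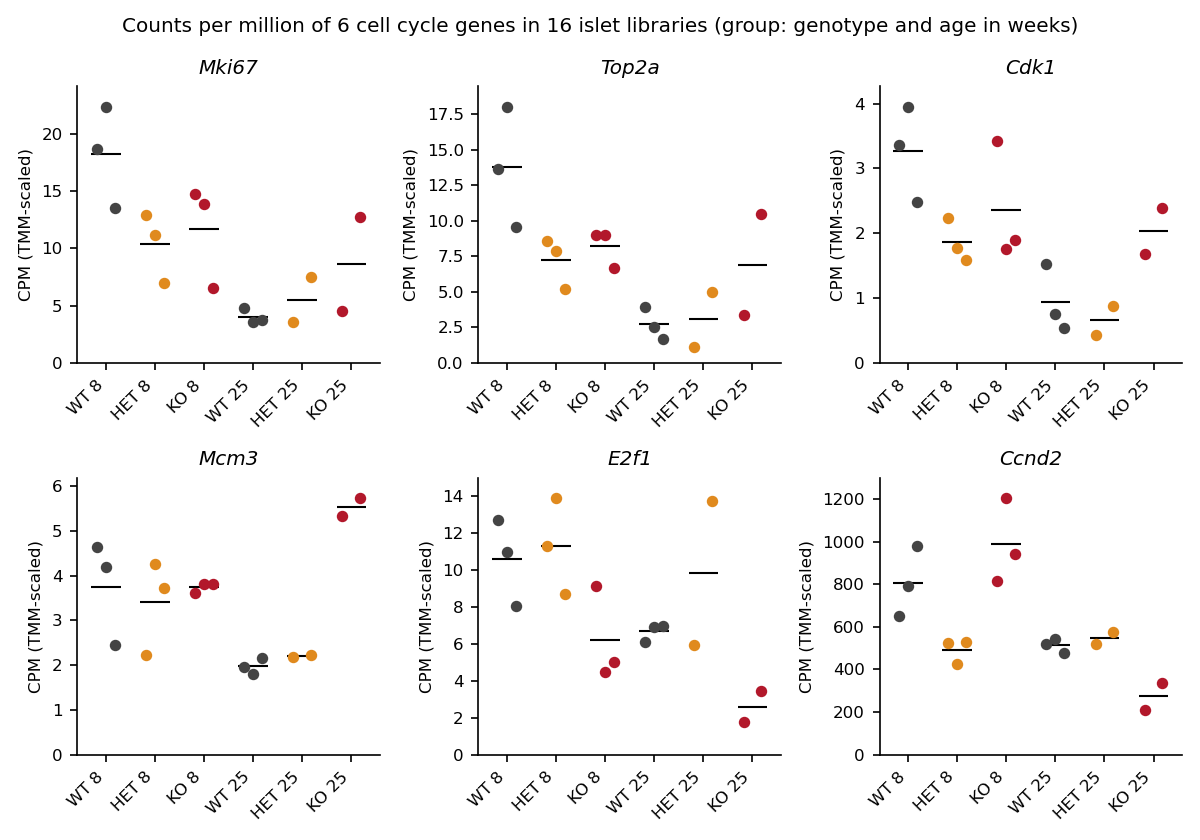
Normalised level (CPM, y axis) of Mki67, Top2a, Cdk1, Mcm3, E2f1 and Ccnd2 in each library, by genotype and age (x axis), with a point for each library and a line at the group mean (KO is βEedKO). Mki67, Top2a and Cdk1 are highest in WT at 8 weeks, and Mcm3 in the 2 βEedKO libraries of 25 weeks (5.33 and 5.73 CPM).

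At 8 weeks βEedKO islets were compared with WT islets of the same age, which asks what loss of Eed in β cells does early. The mitotic members were mostly somewhat lower in βEedKO islets, none past the test. edgeR called 0 of the 38 members (background 0.434%), DESeq2 called 0, and 1 member, Cdk6, had an unadjusted p under 0.05 (background 7.87%). Of the 20 mitotic members 17 were lower and 3 higher, with a median log2 fold change of -0.54, where the median of all genes was 0.00 to 2 decimals. Over all 38 members 25 were lower and 13 higher. With scaling by library size alone, which moved the median of all genes to 0.20, they were divided 20 to 18, and 17 mitotic members were still lower. Whichever library of 8 weeks was left out, 17 or 18 mitotic members were lower, with medians of -0.36 to -0.85. In 5 of the 38 members every βEedKO library was below every WT library (background 4.86%), and in 0 every one was above (background 6.54%). The 5 were Ccnd1, Ccna2, Aurka, Cenpe and Top2a. With only WT replicate 1 and βEedKO replicate 1, the libraries low in interferon-induced genes (chosen after seeing the data), 12 mitotic members were lower and 8 higher, with a median of -0.18. Markers of other cells also differed: all 6 mesenchymal and stellate markers were higher in βEedKO islets, 4 of them at an unadjusted p under 0.05, and their sum was 66.5 to 124 CPM against 34.1 to 53.9 CPM in WT, without overlap. Of 6 macrophage and leukocyte markers 5 were higher, 3 of them at an unadjusted p under 0.05, with a sum of 51.1 to 143 CPM against 51.9 to 59.9 CPM in WT and Cd3e at 0 reads in 1 WT library. Of 6 endothelial markers 5 were higher and 1 lower, with a sum of 297 to 356 CPM against 220 to 287 CPM in WT, without overlap. All 6 acinar markers were lower in βEedKO islets (median log2 fold change -1.47), with sums that overlapped. None of these was called by edgeR, and their part in the levels of the members was not tested.

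In the βEedKO libraries of 8 weeks Mki67 was at 14.7, 13.8 and 6.58 CPM, Top2a at 8.97, 9.03 and 6.66 CPM and Cdk1 at 3.42, 1.76 and 1.90 CPM. Top2a lay below all WT libraries of that age and the other two overlapped with them. The log2 fold changes were -0.64 for Mki67 (edgeR adjusted p = 0.797), -0.74 for Top2a (edgeR adjusted p = 0.768) and -0.47 for Cdk1 (edgeR adjusted p = 0.904). Ccnd2 was at 813, 1205 and 943 CPM, which overlapped with WT (log2 fold change 0.29, edgeR adjusted p = 0.905). E2f1 was at 12.7, 11.0 and 8.05 CPM in WT and 9.11, 4.46 and 5.02 CPM in βEedKO islets at 8 weeks (log2 fold change -0.77, edgeR adjusted p = 0.642). Cdk6 had the largest log2 fold change of the 38 at this age, 1.35 (SE 0.52, unadjusted p = 0.0257, adjusted p = 0.524, edgeR), and its high values were those of the 2 βEedKO libraries rich in interferon-induced transcripts.

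At 25 weeks the comparison of βEedKO with WT islets gave a single call among the members, Mcm3, which rose. It was at 1.96, 1.81 and 2.17 CPM in WT, from 9, 24 and 28 reads, and at 5.33 and 5.73 CPM in βEedKO islets, without overlap (log2 fold change 1.42, SE 0.37, adjusted p = 0.0457, edgeR). Its gene, ENSMUSG00000041859.10, lies on chromosome 1 from 20802968 to 20820312, minus strand, and its printed promoter holds 2 of the E2F words. The call was lost when any 1 of the 5 libraries of 25 weeks was left out (adjusted p up to 0.207), with scaling by library size alone, without the filter on low counts, and with the replicate numbers as a block (edgeR adjusted p = 0.13). The paralogous subunit Mcm5 was at 2.62, 1.43 and 1.55 CPM in WT and 6.01 in both βEedKO libraries, a log2 fold change of 1.67 (SE 0.48, edgeR adjusted p = 0.0667). The other 4 helicase genes had smaller log2 fold changes, from -0.34 for Mcm4 to 0.34 for Mcm7, and their groups overlapped.

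edgeR thus called 1 of the 38 members at 25 weeks, against 6.6% of all genes. At an unadjusted p under 0.05, 9 members were higher (background 12.9%) and 3 lower (background 7.42%). In 10 members both βEedKO libraries were above every WT library (background 24.7%), and in 4 both were below (background 15.9%). Set against these backgrounds, the calls were fewer, the members higher at an unadjusted p were more, and those without overlap were about as many or fewer. The median log2 fold change was 0.82 over the 20 mitotic members, 15 of them higher and 5 lower, and 0.32 over all 38, where all genes gave 0.03. With scaling by library size alone the median of all genes itself moved to 0.27, 31 members were higher and 7 lower, and 18 of the 20 mitotic members were higher. None of the 20 was called with TMM scaling.

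The 2 βEedKO libraries of 25 weeks differed in these genes. Mki67 was at 4.57 and 12.8 CPM, Top2a at 3.35 and 10.5 CPM and Cdk1 at 1.67 and 2.38 CPM. For Mki67 and Top2a the first library was inside the WT range and the second was above it, whereas both Cdk1 values were above all WT values. Replicate 3 was higher than replicate 2 in all 20 mitotic members and in 31 of all 38, and the summed mitotic level was 31.3 CPM in replicate 2 and 67.3 CPM in replicate 3, with 23.9 to 37.7 CPM in WT. Without replicate 3, 12 of the mitotic members were higher and 8 lower, with a median of 0.22. Without replicate 2 it was 16 and 4, with a median of 1.27, and without WT replicate 2 it was 17 and 3, with a median of 1.24.

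The log2 fold changes at 25 weeks were 1.07 for Mki67 (SE 0.46, edgeR adjusted p = 0.22), 1.33 for Top2a (SE 0.50, edgeR adjusted p = 0.159) and 1.13 for Cdk1 (SE 0.55, edgeR adjusted p = 0.281). The largest of the mitotic group were those of the polo-like kinase Plk1, 1.68 (SE 0.62, edgeR adjusted p = 0.15), of Ccnb2, 1.64 (SE 0.67, edgeR adjusted p = 0.197), and of Birc5, 1.61 (SE 0.59, edgeR adjusted p = 0.15). Plk1 was at 0.654, 0.376 and 0.464 CPM in WT and 1.45 and 1.78 CPM in βEedKO islets, without overlap. It had 3 to 6 reads in the WT libraries, so its level there is known only roughly.

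Several genes of the G1 phase were lower in βEedKO islets or close to WT. Ccnd2 (ENSMUSG00000000184.12, chromosome 6 from 127125162 to 127152193, minus strand) was at 211 and 338 CPM in βEedKO islets, below each of the WT values of 521, 541 and 478 CPM (log2 fold change -0.96, SE 0.33, edgeR adjusted p = 0.129). E2f1 was at 6.10, 6.92 and 6.96 CPM in WT and 1.75 and 3.43 CPM in βEedKO islets, without overlap (log2 fold change -1.41, SE 0.41, edgeR adjusted p = 0.074). DESeq2 called both, together with Mcm3 and Mcm5, and the share of all genes that it called is not given here. Cdk4 was at 108, 83.8 and 85.3 CPM in WT and 73.0 and 65.8 CPM in βEedKO islets, again without overlap (log2 fold change -0.46, SE 0.20, edgeR adjusted p = 0.234).

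Ccnd1, at 57.8 and 56.8 CPM in βEedKO islets, was close to the lowest WT library (log2 fold change -0.26, edgeR adjusted p = 0.494). Ccnd3 was at 29.9, 29.8 and 26.8 CPM in WT and 34.5 and 22.0 CPM in βEedKO islets (log2 fold change -0.08, edgeR adjusted p = 0.906), a value that turns positive with scaling by library size alone or without βEedKO replicate 3. Pcna was at 16.6, 37.1 and 37.5 CPM in WT and 27.8 and 50.3 CPM in βEedKO islets (log2 fold change 0.30, edgeR adjusted p = 0.787), and turned negative without βEedKO replicate 3. The groups overlapped for both genes. Cdk6 stood above all WT libraries in both βEedKO libraries (log2 fold change 1.26, SE 0.59, edgeR adjusted p = 0.263).

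**Figure D3:**
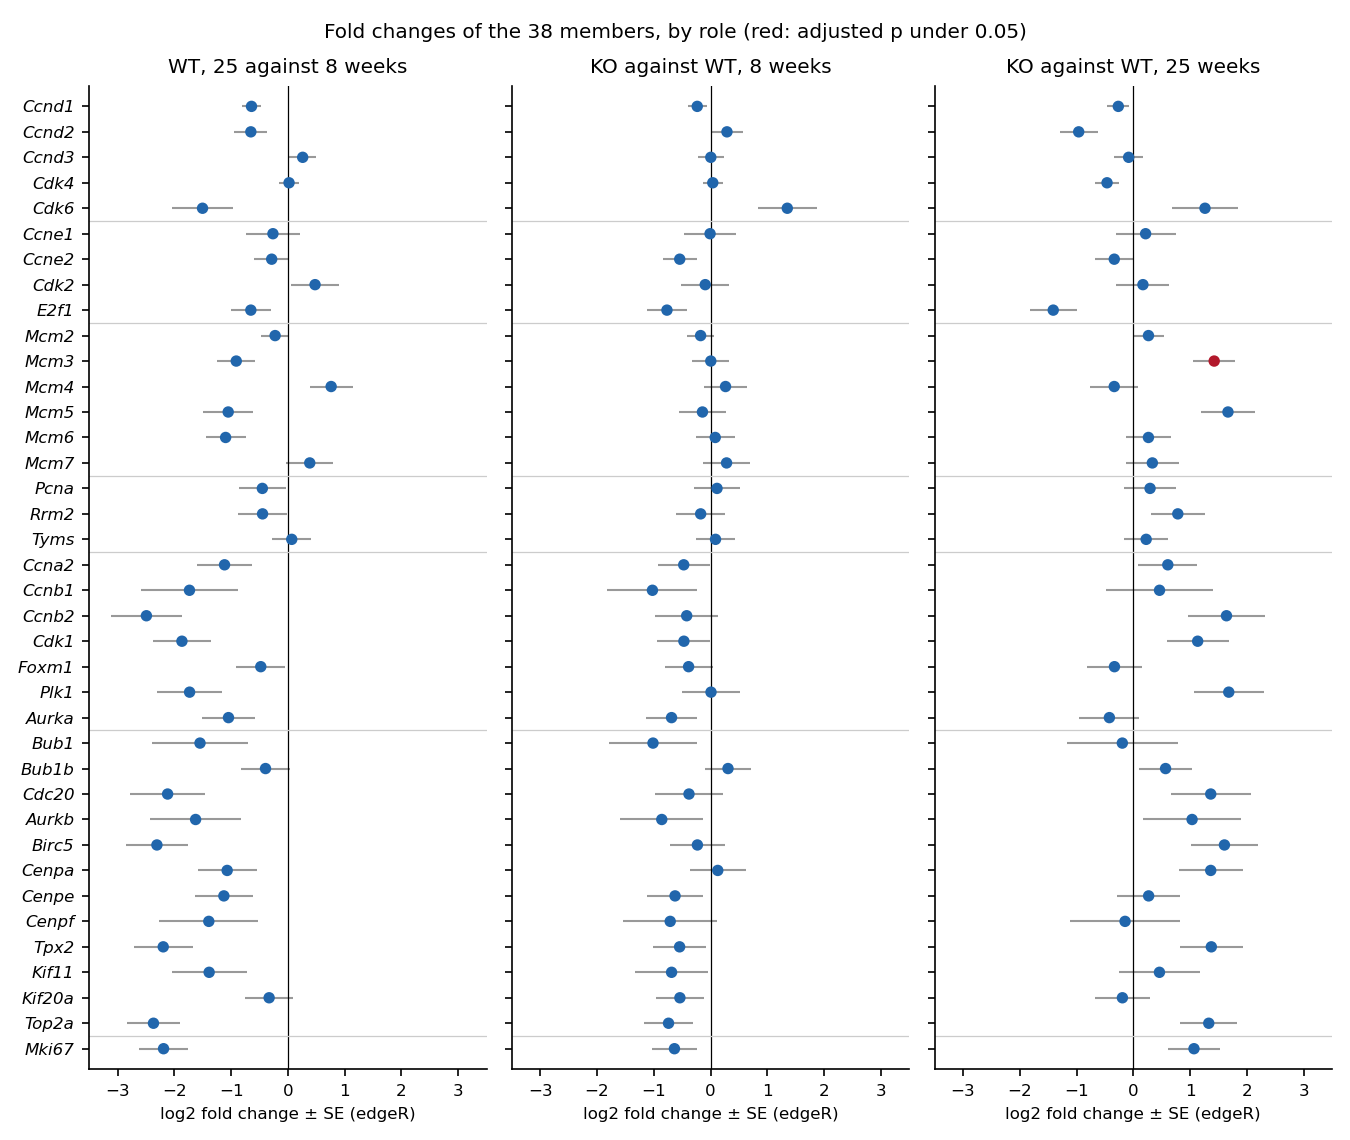
Log2 fold changes of the 38 members (y axis, ordered by role) for age in WT, βEedKO against WT at 8 weeks and βEedKO against WT at 25 weeks (x axis, log2 scale), with bars of 1 standard error and red for an adjusted p under 0.05 (KO is βEedKO). All 20 mitotic members are below 0 for age, and Mcm3 at 25 weeks is the only red point.

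Markers of other cell types also differed between βEedKO and WT islets at 25 weeks. Of 6 alpha, delta and PP cell markers 5 were higher in βEedKO islets, 1 of them (Irx2) called, and 1 was lower. Their sum was 15377 and 17026 CPM against 10060 to 12099 CPM in WT, without overlap. Of 6 mesenchymal and stellate markers all 6 were higher in βEedKO islets and 3 were called, Col1a1, Pdgfra and Dcn, and their sum was 193 and 306 CPM against 69.9 to 100.3 CPM in WT, with none of the 6 at 0 reads. Of 6 macrophage and leukocyte markers 5 were higher, 1 of them (Ptprc) called, and 1 (Cd79a) was called lower. Their sum was 73.6 and 116 CPM against 53.6 to 66.1 CPM in WT, with Cd3e at 0 reads in 1 WT library. The sum of 6 duct markers was 571 and 1352 CPM against 326 to 811 CPM. Between the βEedKO libraries, the alpha, delta and PP sum was higher in replicate 3, as were all mitotic members. The β cell marker sum was higher there too (17275 against 13921 CPM), and so was the sum of the interferon-induced genes (66.6 against 35.1 CPM). The mesenchymal, macrophage, duct, acinar and endothelial sums were higher in replicate 2. The part of these cells in the levels of the members was not tested.

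**Figure D4:**
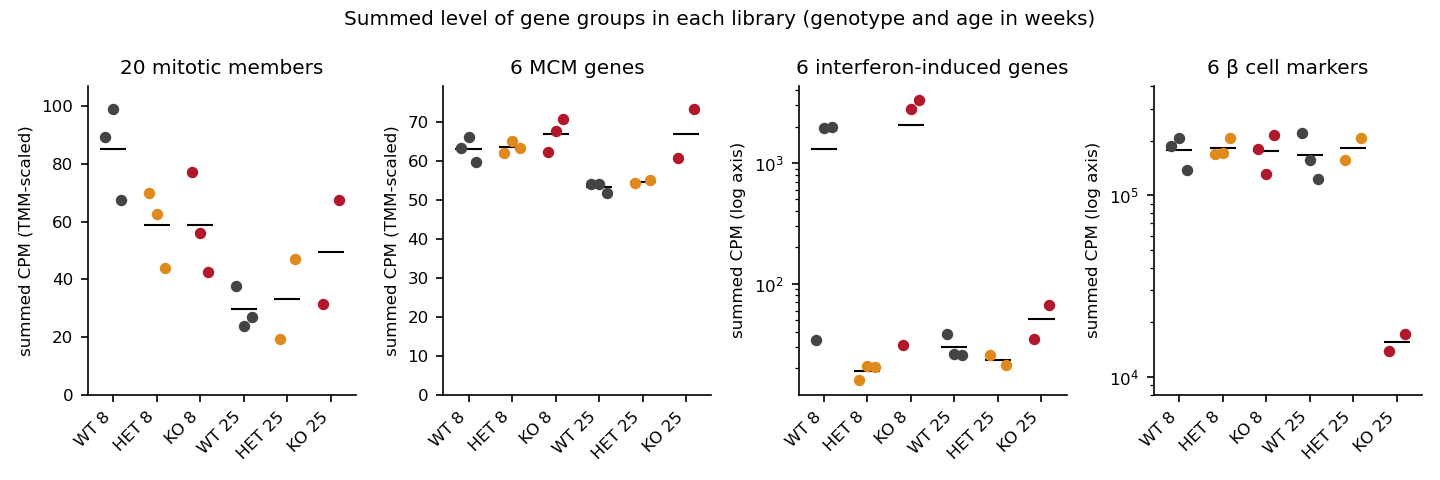
Summed level (CPM, y axis) of the 20 mitotic members, the 6 MCM genes, 6 interferon-induced genes and 6 β cell markers in each library, by genotype and age (x axis), with a point for each library. The 4 libraries with 1937 to 3323 CPM of interferon-induced genes are all of 8 weeks, and the 2 βEedKO libraries of 25 weeks have the lowest β cell marker sums.

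The effect of Eed loss at 25 weeks was set against that at 8 weeks in the same fit. All 20 mitotic members had a larger log2 fold change at 25 weeks, with a median difference of 1.36 where all genes gave 0.02. No member passed the adjusted test: edgeR and DESeq2 each called 0 of the 38 (background 0.198%), and 9 had an unadjusted p under 0.05, 8 higher and 1 lower (background 7.76%). The difference was 2.07 for Top2a (SE 0.66, unadjusted p = 0.0103, adjusted p = 0.378, edgeR) and 1.71 for Mki67 (SE 0.61, edgeR adjusted p = 0.471). For Mcm3 it was 1.42 (SE 0.49, edgeR adjusted p = 0.436). Ccnd2 had the opposite sign, -1.25 (SE 0.44, edgeR adjusted p = 0.455). Without βEedKO replicate 3 of 25 weeks, 14 of the mitotic members had a positive difference and 6 a negative one, with a median of 0.60. Both the age comparison in WT and the βEedKO comparison at 25 weeks use the WT libraries of 25 weeks, so their fold changes are not independent. The same holds for age in WT and for βEedKO and HET against WT at 8 weeks, which share the WT libraries of 8 weeks.

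Within βEedKO islets, 25 against 8 weeks, Ccnd2 fell. It dropped from 813, 1205 and 943 CPM to 211 and 338 CPM, without overlap (log2 fold change -1.90, SE 0.35, adjusted p = 0.0268, edgeR), and was the single call among the 38 members (background 1.5%). The call was lost when 1 of the βEedKO replicates 2 or 3 of 25 weeks or 4 or 5 of 8 weeks was left out, with log2 fold changes of -1.62, -2.27, -1.73 and -1.93 in that order. At 8 weeks Ccnd2 was lowest, both in WT (649 CPM) and in βEedKO islets (813 CPM), in the library low in interferon-induced genes. The part of the interferon state in this fold change was not tested. At an unadjusted p under 0.05, 6 members were lower and 0 higher (background 14.1%). In 4 members every library of 25 weeks was below every library of 8 weeks (background 11.3%). In 4 others every library of 25 weeks was above every library of 8 weeks, against 3231 of all 18685 genes tested. The mitotic members had a median of -0.27, with 17 lower and 3 higher, but single libraries decided this direction. Without βEedKO replicate 1 of 8 weeks 14 were higher and 6 lower (median 0.14), without replicate 2 of 25 weeks 13 were higher and 7 lower (median 0.11), and without replicate 3 of 25 weeks all 20 were lower (median -0.82). Over all 38 members 26 were lower and 12 higher, a split that library size alone turned to 16 and 22, with the mitotic members divided 10 to 10, and under that scaling Ccnd2 was at -1.65 and not called. Mki67 differed by -0.48 (SE 0.46, edgeR adjusted p = 0.661) and Ccnd1 by -0.67 (SE 0.19, edgeR adjusted p = 0.141).

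HET islets gave no call. At 25 weeks edgeR called 0 of the 38 members (background 0%), with 1 member, Ccnd1, at an unadjusted p under 0.05 (background 1.12%), and DESeq2 called 0. Ccnd1 was at 73.4 and 104 CPM in HET, above each WT library (log2 fold change 0.42, edgeR adjusted p = 1). Mki67 was at 3.60 and 7.47 CPM, Top2a at 1.14 and 5.02 CPM and Cdk1 at 0.436 and 0.875 CPM, so that 1 library was low and the other higher for all of them. At 8 weeks edgeR called 0 of the 38 (background 0%), with 1 higher and 3 lower at an unadjusted p under 0.05 (background 14.6%). DESeq2 called 1, Mcm6, and the share of all genes that it called is not given here. Mcm6 was at 18.1, 31.6 and 28.7 CPM in WT and 10.7, 12.5 and 13.3 CPM in HET islets (log2 fold change -1.11, SE 0.30, edgeR adjusted p = 0.223), and its high WT values were those of the libraries rich in interferon-induced transcripts.

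Of the mitotic members 17 were lower and 3 higher in HET islets at 8 weeks, with a median of -0.48, and of -0.32 to -0.62 with 1 library left out. With WT replicate 1 as the only WT library, the one low in interferon-induced genes, 18 were lower and 2 higher (median -0.65), a comparison chosen after seeing the data. No HET library was high in interferon-induced genes, and all 6 of these genes were lower in HET than in WT islets (median -4.55). All 6 alpha, delta and PP markers were lower too (median -0.83), with a sum of 11001 to 13987 CPM against 16474 to 35739 CPM in WT, without overlap. All 6 mesenchymal and stellate markers were higher (median 1.16), with sums that overlapped. Of 6 duct markers 4 were lower and 2 higher (median -0.72), with Cftr at 0 reads in 1 HET library. The part of these cells in the levels of the members was not tested. Mki67 was at 12.96, 11.2 and 7.02 CPM, Top2a at 8.57, 7.85 and 5.23 CPM and Cdk1 at 2.23, 1.77 and 1.58 CPM, each below every WT library of that age. Ccnd2 was at 523, 428 and 527 CPM, also below (log2 fold change -0.71, edgeR adjusted p = 0.26). Its WT values of 794 and 979 CPM were those of the libraries rich in interferon-induced genes, and the remaining WT library was at 649 CPM. At 25 weeks Ccnd2 was at 519 and 577 CPM in HET islets, within or just above the WT range. Not called, these values lay in 6 members below all WT libraries of 8 weeks, against 9.09% of all genes. In 3 members every HET library of 8 weeks was above every WT library, against 1931 of all 18828 genes tested.

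Ccnd1, Ccnd3 and Cdk4 differed little between genotypes at 8 weeks, and their libraries mostly overlapped. Ccnd1 was at 88.7, 90.3 and 85.1 CPM in βEedKO and 108, 78.6 and 106 CPM in HET islets at 8 weeks. Ccnd3 was at 28.7, 21.6 and 22.4 CPM in WT, 30.1, 30.8 and 28.7 CPM in HET and 30.7, 20.4 and 21.6 CPM in βEedKO islets at 8 weeks, and 26.0 and 29.4 CPM in HET at 25 weeks. Cdk4 was at 95.3, 91.3 and 87.1 CPM in WT, 97.6, 95.2 and 101 CPM in HET and 105, 79.8 and 96.1 CPM in βEedKO islets at 8 weeks, and 88.7 and 102 CPM in HET at 25 weeks. All of these ranges overlap with WT of the same age, with exceptions at 8 weeks. There Ccnd1 in βEedKO islets was below the WT range, and Ccnd3 and Cdk4 in HET islets lay at its upper end or above it. Pcna was at 29.1, 52.6 and 43.4 CPM in WT, 38.9, 36.6 and 37.9 CPM in HET and 25.3, 51.5 and 58.6 CPM in βEedKO islets at 8 weeks, and 40.4 and 32.3 CPM in HET at 25 weeks. E2f1 was at 11.3, 13.9 and 8.68 CPM in HET at 8 weeks and 5.94 and 13.7 CPM at 25 weeks. Mcm3 was at 4.63, 4.19 and 2.44 CPM in WT, 2.23, 4.26 and 3.72 CPM in HET and 3.61, 3.81 and 3.81 CPM in βEedKO islets at 8 weeks, and 2.18 and 2.22 CPM in HET at 25 weeks. Both βEedKO libraries of 25 weeks were above every other library.

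Scaled by exon length (RPKM), Ccnd2 and Cdk4 ranked first and second of the members by group mean in all 6 groups. In βEedKO islets of 25 weeks the libraries of these genes overlapped. Ccnd2 was at 85.8 ± 17.6 RPKM (SD, n = 3) in WT at 8 weeks and 29.2 ± 9.55 RPKM (SD, n = 2) in βEedKO at 25 weeks. Cdk4 was at 28.1 ± 1.26 RPKM in WT at 8 weeks, followed by Ccnd1 at 22.0 RPKM and Pcna at 17.4 RPKM, whose libraries overlapped. In both βEedKO groups Pcna was above Ccnd1, at 18.8 and 18.7 RPKM at 8 weeks and 16.3 and 12.2 RPKM at 25 weeks, with overlapping libraries at both ages. The lowest were Aurkb at 0.331 RPKM, Cenpf at 0.308 RPKM and Bub1 at 0.249 RPKM in the same group, which overlapped too. Mki67 was at 1.81 ± 0.441 RPKM in WT at 8 weeks and 0.399 ± 0.0678 RPKM at 25 weeks (SD, n = 3 each).

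**Figure D5:**
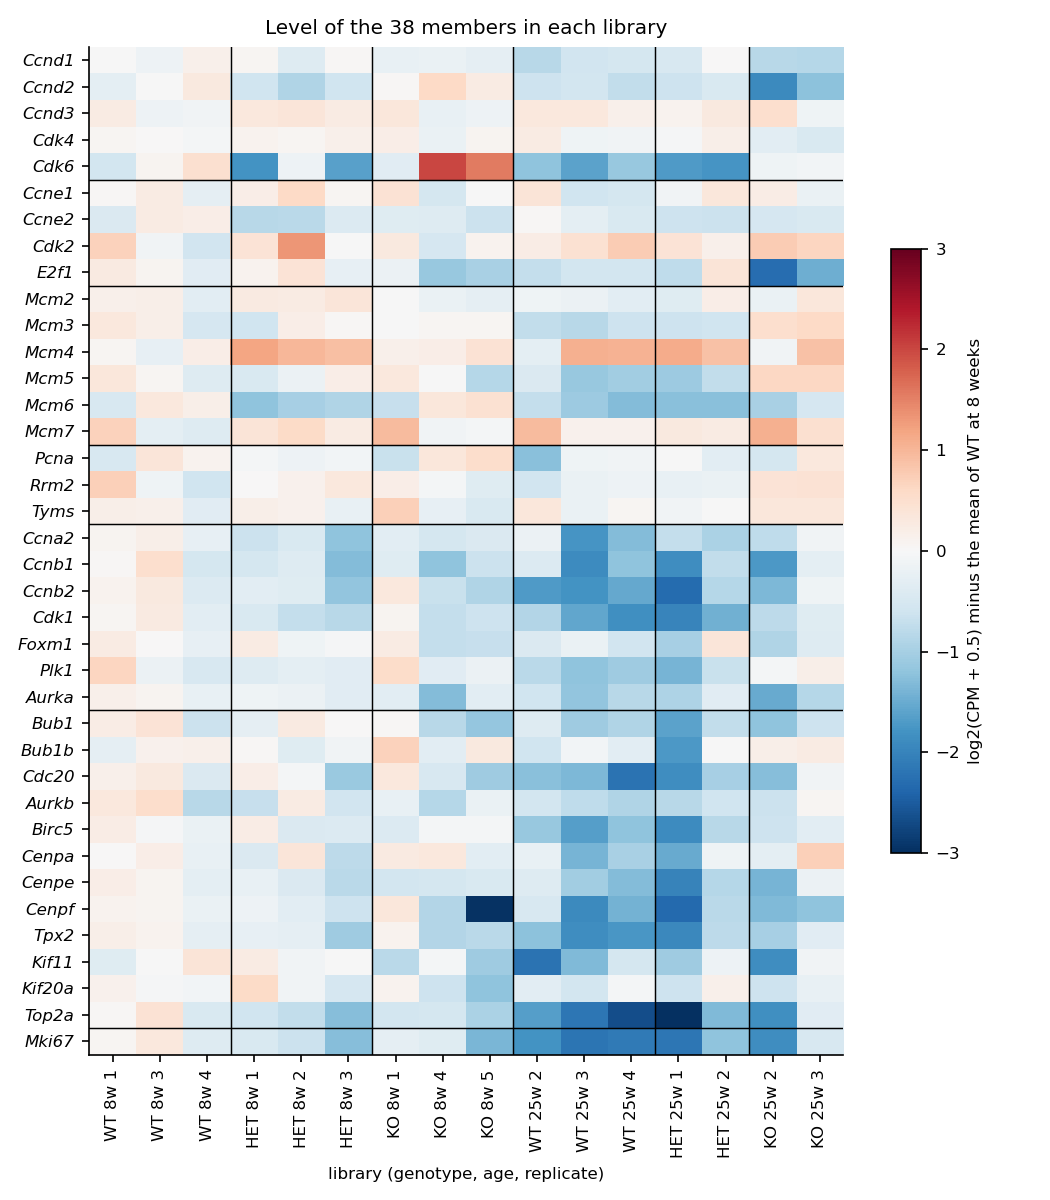
Log2 level of the 38 members (y axis, by role) in the 16 libraries (x axis), as log2(CPM + 0.5) minus the mean of the WT libraries of 8 weeks. Most mitotic members are below that mean in the WT and HET libraries of 25 weeks, and βEedKO replicate 3 of 25 weeks is nearer to it than replicate 2.

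At 25 weeks genes with a start site in state L were more often higher in βEedKO islets, in the genome as a whole and without a test here. Of 2320 tested genes with a start site in state L, 77.2% were higher in βEedKO than in WT islets and 16.3% were called, with a median of 0.95. Of 8784 in states A or B 36.1% were higher and 3.84% were called, with a median of -0.14. The 19 members in state L had a median of 1.13, 13 of them higher, 6 lower and 1 called, and the 19 in states A or B a median of 0.27, again with 13 higher. At 8 weeks the 19 members in state L had a median of -0.38, where all genes in that state had 0.32. In the age comparison of WT the medians of the members were -1.50 in state L and -0.45 in states A or B, where all genes had -0.01 and -0.06. The members in state L with lower values at 25 weeks include Ccnd2 and E2f1.

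Among genes that act on the members, the inhibitor locus Cdkn2a, which encodes p16 and p19, rose in βEedKO islets at both ages. It was at 0.254, 0.233 and 0.424 CPM in WT, from 4 to 8 reads, 0.418, 0.222 and 0.482 CPM in HET and 11.4, 8.63 and 13.2 CPM in βEedKO islets at 8 weeks. At 25 weeks it was at 0.654, 0.376 and 0.232 CPM in WT, 0.817 and 0.525 CPM in HET and 19.4 and 25.6 CPM in βEedKO islets. HET and WT overlapped and βEedKO libraries were far above both. The log2 fold change over WT was 5.14 at 8 weeks (SE 0.41, edgeR adjusted p = 0.000646) and 5.81 at 25 weeks (SE 0.45, edgeR adjusted p = 0.00017). Of 7 genes of CDK inhibitors it was the only one called at either age. With the replicate numbers as a block the call at 8 weeks was lost (log2 fold change 4.83, edgeR adjusted p = 0.113), and that at 25 weeks was not.

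Of 22 further G1/S genes 20 were higher and 2 lower at 25 weeks in βEedKO islets, with 0 called by edgeR, 3 higher at an unadjusted p under 0.05 and a median of 0.60. Of 30 further G2/M genes 25 were higher and 5 lower, with a median of 0.68. The single call among them was Spc25, a kinetochore gene, which fell by 3.19 on the log2 scale (SE 0.59, edgeR adjusted p = 0.0104). Spc25 was at 65.6 to 194 CPM in WT and 12.2 and 12.4 CPM in βEedKO islets at 25 weeks, and the call was lost without either of the βEedKO libraries (edgeR adjusted p = 0.0883 and 0.101). Its start site is 4879 bp from that of the β cell gene G6pc2, on the opposite strand, which fell by 3.63 (edgeR adjusted p = 0.00222). Whether reads of that gene are among those counted for Spc25 was not tested. Of 18 genes of pocket proteins, E2F factors and DREAM subunits 8 were higher and 10 lower, with 0 called and a median of -0.09. At 8 weeks 26 of the 30 further G2/M genes were lower in βEedKO islets, with a median of -0.57, and the 22 further G1/S genes were divided 11 to 11.

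Exon bases are shared with a gene on the opposite strand by 12 of the 38 members, among them Ccnd1, Ccnd2, Ccnd3, Cdk4, Plk1 and Cdc20, and 2 others share them only with a gene on the same strand. Whether the counting used strand is not given in the sources used here, so reads of these partners cannot be told apart from those of the members.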

How the data were processed

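Islet RNA-seq of 16 libraries in 6 groups was analysed with a chromatin-state segmentation of WT islets. For each library the authors deposited raw counts per gene, from TopHat v2.0.13 alignments to GRCm38 and featureCounts (Subread 1.5.0-p1) on Gencode M9 gene models, with the use of strand not given in the sources used here. The authors deposited the segmentation as EpicSeg state letters in bins of 200 bp, a unit with no level. No count column was left unused (0). The total count per library was 4645393 to 22925359, and the count alone sets the precision of low genes. Replicates are separate libraries of islets from 1 or more animals, and p-values measure the spread between these libraries.

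The tools were edgeR 4.0.16 and DESeq2 1.42.0 (with limma 3.58.1, under R 4.3.3). TMM scaling and filterByExpr by group left 18685 genes for the 11 WT and βEedKO libraries and 18828 for all 16, in which HET was compared. A gene was called when edgeR's quasi-likelihood test gave an adjusted p (Benjamini-Hochberg) under 0.05. The standard error is the size of the log2 fold change over the root of the F statistic. Biological variation between replicates had a common coefficient of 0.456 in the first fit and 0.424 in the second. In a simulation of βEedKO against WT at 25 weeks, edgeR recovered 4% of genes given a log2 fold change of 1. It recovered 32% at 2, 66% at 3 and 30% at -2, and 1 of 67 calls was false. At 8 weeks these shares were 2%, 38%, 66% and 32%, and 5 of 74 calls were false. A gene with a log2 fold change near 1 was thus rarely called, so a missing call does not show an unchanged level. Alternatives varied scaling, filter, tool, control, block and libraries. Symbols, positions and start sites came from Gencode M21, a later release on the same build, which held 47224 of the 47937 gene identifiers and lacked 713. RPKM used the union of exons. For promoters the RefSeq entry nearest to the gene start was taken, and for the share of all genes the first entry of each.

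The members, the other gene lists and the markers were chosen with earlier results of these data known. All 38 members were named. Values per library were given for called members, for Mki67, Top2a, Cdk1, Ccnd1, Ccnd2, Ccnd3, Cdk4, Cdk6, Pcna and E2f1, and for Eed and Cdkn2a, beside genes of other lists with the smallest adjusted p. Values of Mcm5, Mcm6 and Plk1 were added after their results were seen. No source ties the replicate numbers to a litter or batch. Same-numbered WT and βEedKO libraries deviated together (correlation 0.457 and 0.163 at 8 weeks, 0.176 and 0.255 at 25 weeks), but libraries of different numbers reached 0.450, and with 2 pairs at each age the pairing rests on the numbers alone. Libraries within a group differed by far more than counting noise (31.03 to 591.6 chi-square per degree of freedom, genes with at least 10 reads), so each was counted as a replicate.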

Additional observations from a re-analysis of the deposited data

How the results depend on the processing

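The number of members called at 25 weeks in βEedKO against WT islets was 1 and became 0 with library size alone, 0 without the filter, 0 with the replicate block, 4 with DESeq2, 2 in a fit of all 16 libraries and 4 with WT and HET pooled as control. Leaving out 1 library gave 0 to 0. The share of all genes called under each setting is not given beside these counts or those below. A higher count of members is thus no measure of support by itself. Mcm3 had a log2 fold change of 1.498 with the replicate block (edgeR adjusted p = 0.13), and the block changed 1 other call, that of Cdkn2a at 8 weeks (4.83, edgeR adjusted p = 0.113). In other comparisons leaving out libraries gave counts of 0 to 1 for βEedKO against WT at 8 weeks (1, Cdk6, without βEedKO replicate 1: 1.79, edgeR adjusted p = 0.0441), 0 to 2 for age in βEedKO (2, Ccnd2 and Cdk6, without βEedKO replicate 1 of 8 weeks) and 0 to 1 for HET against WT at 8 weeks (1, Mcm6, without WT replicate 1: -1.38, edgeR adjusted p = 0.0413). DESeq2 called 4 members for age in WT, 2 for age in βEedKO and 1 for HET at 8 weeks. For age in βEedKO, library size alone gave 0. Subsets chosen after seeing the data, with only the libraries high in interferon-induced genes at 8 weeks, gave 7 for age in WT and 4 in βEedKO, and with only those low in them 0 in βEedKO. Cdk1 at 8 weeks reversed to 0.034 in the last. At 25 weeks Ccnd3 reversed to 0.044 with library size alone and ranged from -0.466 (without βEedKO replicate 2) to 0.21 (without replicate 3) with 1 library left out, and Pcna from -0.187 (without replicate 3) to 0.638 (without replicate 2). Mki67 for age in βEedKO ranged from -1.393 (without replicate 3 of 25 weeks) to 0.051 (without replicate 2). Spc25 was not called without βEedKO replicate 2 (-3.22, edgeR adjusted p = 0.0883) or 3 (-3.17, edgeR adjusted p = 0.101). The cause of these changes was not tested. Groups of 2 or 3 libraries and mitotic members with 0 to 385 reads limit what these data can show.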

Other observations

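Mcm4, Mcm7 and Pcna varied between replicates in a way that crossed the genotypes. Mcm4 was at 7.85 CPM in WT replicate 2 and 8.98 CPM in βEedKO replicate 2 at 25 weeks, and at 18.4 to 21.7 CPM in the other 5 libraries of that age. At 8 weeks it was at 8.08 to 13.2 CPM in WT and βEedKO islets and at 18.5 to 22.92 CPM in HET islets. Pcna was lowest in the same replicates 2 at 25 weeks, at 16.6 and 27.8 CPM, and Mcm7 was highest there, at 17.0 and 18.6 CPM against 9.36 to 12.3 CPM in the other libraries. What sets these libraries apart was not tested.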
